A study of Mus musculus with 12 samples.

Results

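Transcript levels of 8 proneural and neurogenic genes were described in heads of mouse embryos with a neural-crest-specific alteration of Eftud2, which encodes a GTPase of the splicing machinery. The genes were Neurog1, Neurog2, Neurod1, Neurod4, Atoh1, Nhlh1, Nhlh2 and Insm1. They were taken by gene symbol from a table of 24421 symbols, and all 8 were present. The controls were heterozygous (Eftud2+/-) and the mutants homozygous (Eftud2-/-), both on a C57Bl/6 background and without treatment, at embryonic day 9.0 (E9.0) and E9.5. Each of the 4 groups held 3 libraries, so that 12 libraries were compared in all, and every library carried at least 1 altered Eftud2 allele. The Cre driver, the somite counts and the number of embryos in a library are not given in the sources used here. The labels do not say that the libraries of a group came from separate embryos or pools, so the p-values measure the spread between these libraries only, which may be technical.

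Proneural proteins are basic helix-loop-helix (bHLH) transcription factors that push dividing progenitors of the neural tube and of the cranial placodes towards a neuronal fate. They bind the E-box as dimers with the widely expressed E proteins, and Id proteins block them by taking up those partners. A cell that gains proneural activity displays Delta ligands, and Notch signalling in its neighbours induces Hes repressors that hold proneural genes down there, which is called lateral inhibition. Neurog1 and Neurog2, the neurogenins, act early and commit progenitors, among them those of the trigeminal and epibranchial ganglia. Neurod1 and Neurod4 act later, in cells leaving the cycle. Atoh1 specifies precursors of the rhombic lip at the dorsal edge of the hindbrain. Nhlh1 and Nhlh2 are switched on for a short time in newly born neurons. Insm1, a zinc finger repressor and thus not a bHLH protein, marks the same step of neuronal birth.

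The 2 neurogenins and the Nhlh pair are 2 sets of close paralogs whose members are set against each other in the results, so the sequences upstream of their starts are shown, 5′ to 3′ on the gene's strand. Capitals mark every E-box (CANNTG, which reads the same on both strands). The sequences are from RefSeq on GRCm38.p6, at chr13:56252181-56252430 (minus strand) for Neurog1, chr3:127632886-127633134 (plus strand) for Neurog2, chr1:172057597-172057846 (minus strand) for Nhlh1 and chr3:102009895-102010075 (plus strand) for Nhlh2.
Neurog1: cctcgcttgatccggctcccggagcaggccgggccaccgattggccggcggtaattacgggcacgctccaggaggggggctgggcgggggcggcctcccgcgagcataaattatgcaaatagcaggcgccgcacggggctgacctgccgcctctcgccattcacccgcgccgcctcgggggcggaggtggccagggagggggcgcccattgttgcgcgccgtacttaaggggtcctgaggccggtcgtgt
Neurog2: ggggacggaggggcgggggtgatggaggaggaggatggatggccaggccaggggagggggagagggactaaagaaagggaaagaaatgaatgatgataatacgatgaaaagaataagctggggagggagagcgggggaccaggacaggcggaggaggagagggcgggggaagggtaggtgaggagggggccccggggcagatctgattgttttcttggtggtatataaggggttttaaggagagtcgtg
Nhlh1: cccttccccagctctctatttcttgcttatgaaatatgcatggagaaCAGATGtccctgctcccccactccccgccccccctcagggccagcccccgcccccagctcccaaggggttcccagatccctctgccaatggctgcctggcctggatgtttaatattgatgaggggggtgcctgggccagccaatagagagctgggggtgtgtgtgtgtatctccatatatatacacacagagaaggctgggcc
Nhlh2: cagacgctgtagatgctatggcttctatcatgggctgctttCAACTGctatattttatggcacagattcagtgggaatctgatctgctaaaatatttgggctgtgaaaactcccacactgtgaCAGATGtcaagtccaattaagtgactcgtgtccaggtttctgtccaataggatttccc
RefSeq promoters were found for 7 of the 8 genes. An E-box was present in the 250 bases before the RefSeq start in 3 of these 7, against 66% of 27025 promoters searched over the same length. Nhlh1 held CAGATG 203 bases before the start. Nhlh2 held CAACTG at 209 bases and CAGATG at 127 bases. Positions count from the RefSeq start to the first base of the E-box. The printed Nhlh2 sequence stops 69 bases short of that start and the Neurog2 sequence 1 base short, where the GENCODE gene begins. Neurod1 held CATATG at 242 bases. CAGATG, read on either strand, was present in 14.5% of all promoters and CATATG in 3.47%. A match of letters is a description of the window and not a binding site.

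Sequencing depth ranged from 13914543 to 31172708 counts per library, and 17311 to 19783 genes had at least 1 count. Ribosomal Rn45s took 37.38% of the counts in heterozygous E9.0 replicate 1 and 4.398% to 16.24% in the other 11 libraries. Levels below are CPM, counts divided by the scaled library size, and 1 count equals 0.0293 to 0.0751 CPM. Eftud2 itself stood at 275 to 302 CPM in heterozygous and 232 to 236 CPM in homozygous libraries at E9.0. At E9.5 it stood at 248 to 264 CPM in heterozygous and 221 to 226 CPM in homozygous libraries, and the genotypes were separate at each stage. The labels name the tissue in 3 ways, as neural crest cells, as cranial nerve ganglia and, in the protocol, as heads. The summed CPM of 12 markers of the neural tube was 830 to 1057 in every library, that of 10 markers of neural crest 219 to 405 and that of 15 markers of cranial sensory ganglia 164 to 205. Markers of blood and heart were present as well, with only Hba-a1, an adult globin, at 0 in all libraries of 3 groups. The libraries are therefore described as mixed tissue and no cell type is assigned to a level. In such bulk samples fewer cells of a type and less RNA per cell cannot be told apart.

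All 8 genes rose from E9.0 to E9.5 in both genotypes. Of the 14810 genes tested in edgeR (quasi-likelihood), 19.2% were called higher at E9.5 in heterozygous and 19.6% in homozygous heads (adjusted p under 0.05). The libraries of the 2 stages did not overlap for any of the 8 genes in either genotype, against 25.2% of all genes lying wholly higher at E9.5 in heterozygous and 26.0% in homozygous heads. The median log2 change was 2.62 in heterozygous and 2.92 in homozygous heads over the 8 genes, and 0.01 in both over all genes. For Atoh1, Nhlh1 and Nhlh2 the filter on low counts itself favoured a rise, as given with their values, so this count and median only describe the set. The neurogenins rose least and Nhlh2 most.

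**Figure D1:**
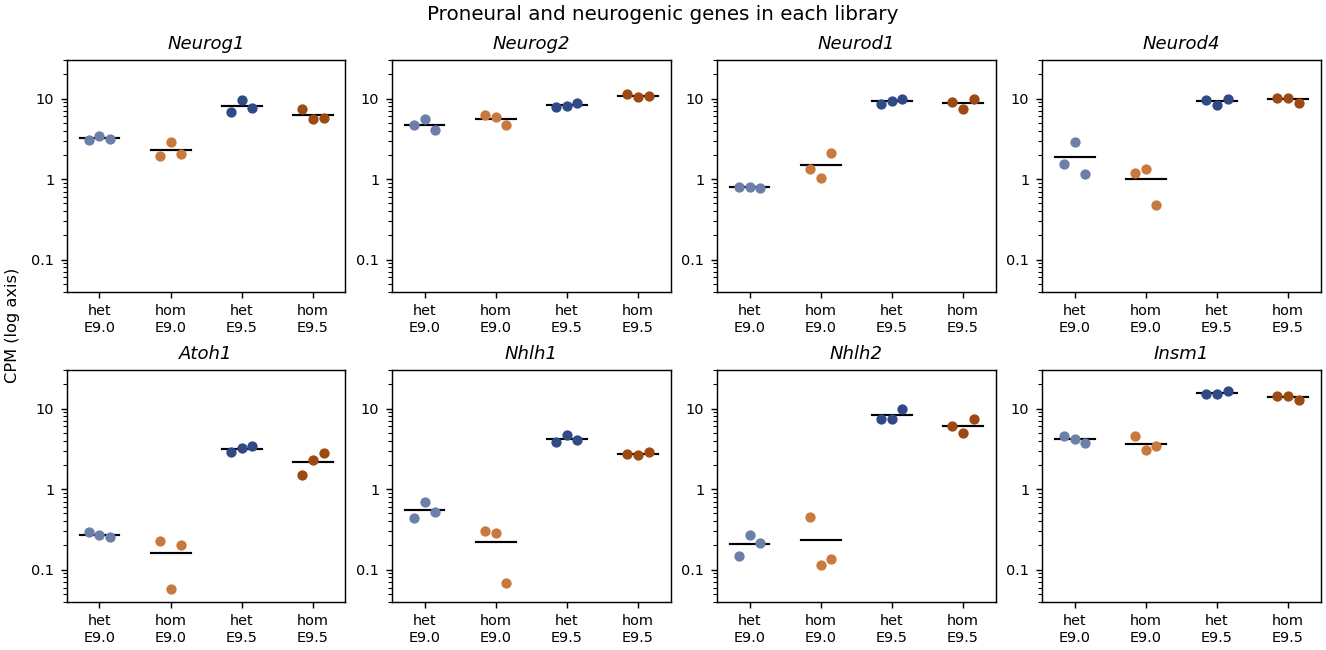
Level of each gene in each library, in CPM on a log axis. Every panel is 1 gene, every point 1 library of the heterozygous (het, blue) or homozygous (hom, orange) group at E9.0 or E9.5, and the bars are means of 3 libraries. All E9.5 points lie above all E9.0 points of the same genotype. Atoh1, Nhlh1 and Nhlh2 lie below 1 CPM at E9.0.

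Neurog1, a single-exon gene on chromosome 13 (GRCm38, 56250478 to 56252163), is the neurogenin known for the trigeminal and vestibulocochlear ganglia. Its levels in heterozygous heads were 3.08, 3.38 and 3.14 CPM at E9.0 and 6.77, 9.59 and 7.56 CPM at E9.5. In homozygous heads they were 1.95, 2.92 and 2.03 CPM at E9.0 and 7.48, 5.52 and 5.81 CPM at E9.5. The rise was 1.32 ± 0.18 (log2, SE; edgeR adjusted p = 4.14e-05) in heterozygous and 1.43 ± 0.20 (adjusted p = 4.46e-05) in homozygous heads. Neurog2, on chromosome 3 (127633135 to 127635631), drives neurogenesis in the epibranchial placodes and in much of the neural tube. Its libraries read 4.70, 5.52 and 4.04 CPM at E9.0 and 7.83, 8.07 and 8.80 CPM at E9.5 in heterozygous heads. The homozygous libraries read 6.31, 5.90 and 4.73 CPM at E9.0 and 11.4, 10.4 and 10.6 CPM at E9.5. This was the smallest rise of the 8 genes in both genotypes, at 0.80 ± 0.13 (edgeR adjusted p = 0.000272) and 0.94 ± 0.13 (adjusted p = 5.68e-05).

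Neurod1 (chromosome 2, 79452521 to 79456751), which carries newborn neurons through differentiation, was nearly uniform in heterozygous heads at E9.0, at 0.807, 0.804 and 0.774 CPM. It reached 8.59, 9.45 and 9.83 CPM there at E9.5. The homozygous libraries read 1.35, 1.03 and 2.09 CPM at E9.0 and 9.07, 7.40 and 9.82 CPM at E9.5. The genotypes did not overlap at E9.0 and overlapped at E9.5. Neither the E9.0 difference (edgeR adjusted p = 0.195) nor its change between the stages (adjusted p = 0.387) passed. The rise was 3.54 ± 0.21 (log2, SE; edgeR adjusted p = 1.3e-08) in heterozygous and 2.56 ± 0.20 (adjusted p = 1.33e-07) in homozygous heads. In the annotation Neurod1 overlaps Cerkl on the same strand and a noncoding gene on the other, and the strand setting of the counting is not given in the sources used here, so its counts are uncertain to that extent. Neurod4 (chromosome 10, 130268152 to 130280240), a relative that acts beside Neurod1, read 1.54, 2.90 and 1.16 CPM in heterozygous heads at E9.0 and 9.66, 8.39 and 9.90 CPM at E9.5. The homozygous libraries read 1.202, 1.32 and 0.473 CPM at E9.0 and 10.2, 10.3 and 8.85 CPM at E9.5. Here replicate 2 was the high library of the heterozygous and replicate 3 the low library of the homozygous E9.0 group. Its rise was 2.33 ± 0.25 (edgeR adjusted p = 5.46e-06) in heterozygous and 3.27 ± 0.29 (adjusted p = 7.41e-07) in homozygous heads.

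Atoh1, Nhlh1 and Nhlh2 were close to the limit of detection at E9.0. They passed the filter on low counts through their E9.5 libraries. No group at E9.0 had all 3 libraries above the filter's minimum of 0.413 CPM before scaling. The filter thus favoured a rise, and their stage difference gives no support of its own. Atoh1 (chromosome 6, 64729125 to 64731245), the gene of rhombic lip precursors, had 4, 5 and 6 counts in heterozygous libraries at E9.0, or 0.294, 0.268 and 0.258 CPM. It had 3, 1 and 3 counts in the homozygous ones, or 0.225, 0.0573 and 0.203 CPM. At E9.5 it reached 2.90, 3.20 and 3.41 CPM in heterozygous and 1.48, 2.33 and 2.77 CPM in homozygous heads. The change with stage was 3.52 ± 0.32 (log2, SE; edgeR adjusted p = 8.24e-07) and 3.78 ± 0.40 (adjusted p = 3.15e-06).

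Nhlh1 (chromosome 1, 172052292 to 172057573) had 6, 13 and 12 counts in heterozygous libraries at E9.0, or 0.440, 0.697 and 0.516 CPM. In homozygous libraries it had 4, 5 and 1 counts, or 0.301, 0.286 and 0.0675 CPM. Its E9.5 levels were 3.90, 4.75 and 4.05 CPM in heterozygous and 2.70, 2.64 and 2.92 CPM in homozygous heads. All homozygous libraries were below all heterozygous ones at both stages. With stage Nhlh1 rose by 2.92 ± 0.24 (log2, SE; edgeR adjusted p = 3.14e-07) in heterozygous and by 3.62 ± 0.32 (adjusted p = 5.35e-07) in homozygous heads. Nhlh2 (chromosome 3, 102010076 to 102015492), its paralog, went from 2, 5 and 5 counts (0.147, 0.268 and 0.215 CPM) to 7.44, 7.51 and 9.90 CPM in heterozygous heads. In homozygous heads it went from 6, 2 and 2 counts (0.451, 0.115 and 0.135 CPM) to 6.07, 4.94 and 7.46 CPM. Its rise of 5.23 ± 0.31 (edgeR adjusted p = 1.35e-08) in heterozygous heads was the 22nd largest of all 14810 genes. In homozygous heads the rise was 4.77 ± 0.34 (adjusted p = 6.25e-08), the 21st largest. Nhlh2 passed the filter through its E9.5 libraries and had few counts at E9.0, so its ranks and stage p-values only describe it.

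Insm1 (chromosome 2, 146221921 to 146225020), which represses progenitor genes as neurons are born, was well counted at both stages. Heterozygous libraries read 4.62, 4.18 and 3.70 CPM at E9.0 and 14.99, 15.2 and 16.4 CPM at E9.5. Homozygous libraries read 4.51, 3.09 and 3.44 CPM at E9.0 and 14.4, 14.2 and 12.7 CPM at E9.5. The spread within each group was small beside the step between stages. Insm1 rose by 1.91 ± 0.13 (log2, SE; edgeR adjusted p = 3.18e-08) in heterozygous and by 1.92 ± 0.13 (adjusted p = 4.52e-08) in homozygous heads.

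**Figure D2:**
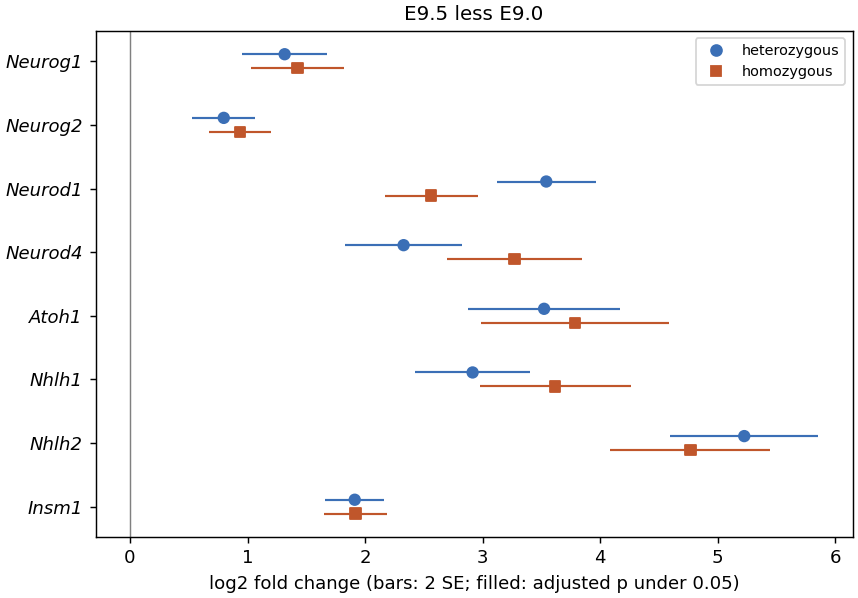
Log2 fold change from E9.0 to E9.5 of each gene in heterozygous (blue circles) and homozygous (orange squares) heads, with bars of 2 SE. All 16 points are filled, which marks an adjusted p under 0.05, and range from 0.80 for Neurog2 to 5.23 for Nhlh2.

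The 10 stage calls of Neurog1, Neurog2, Neurod1, Neurod4 and Insm1 were kept under each alternative that could be run and with each library left out in turn. The stages differed in the levels of tissue markers as well, and the part of tissue makeup in the rises was not tested. The summed CPM of 6 heart muscle markers was 64.3 to 222 at E9.0 and 1822 to 2480 at E9.5 in heterozygous heads, and all 6 were called higher. In homozygous heads that sum was 109 to 329 at E9.0 and 2208 to 2932 at E9.5. The sum of 8 erythroid markers was 537 to 1173 at E9.0 and 2788 to 5197 at E9.5 over both genotypes. The markers of the neural tube moved little in sum, from 830 to 895 CPM at E9.0 to 838 to 1057 CPM at E9.5. Of 10 neural crest markers, 8 were called lower with stage in each genotype, and their summed CPM went from 383 to 405 at E9.0 to 235 to 262 at E9.5 in heterozygous heads. In homozygous heads it went from 323 to 348 to 219 to 240 CPM. Of 10 head mesenchyme markers, 4 were called higher in heterozygous heads, and 1 higher and 2 lower in homozygous heads. Of 12 markers of early neurons, 10 were called higher with stage in heterozygous and 7 in homozygous heads.

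Between genes, levels were compared per kilobase of exon, with lengths from GENCODE M21, whose use by the authors is not known. In heterozygous heads at E9.0 Neurog2 (2.13 ± 0.33 CPM per kilobase, SD, n = 3) and Neurog1 (1.90 ± 0.09) led and overlapped, followed by Insm1 (1.34 ± 0.15) and then Neurod4, Neurod1, Nhlh1, Atoh1 and Nhlh2, each clear of the next. At E9.5 Insm1 (5.01 ± 0.25) and Neurog1 (4.73 ± 0.86) led in heterozygous heads and overlapped. Next came Neurog2 (3.70 ± 0.23) and Neurod1 (3.40 ± 0.23), which overlapped, and then Neurod4 (2.79 ± 0.24). Nhlh1 (1.72 ± 0.18), Nhlh2 (1.53 ± 0.26) and Atoh1 (1.49 ± 0.12) overlapped at the bottom. In homozygous heads Neurog2 stood first and clear of the next gene at both stages, at 2.54 ± 0.37 and 4.85 ± 0.24 CPM per kilobase. Neurog1 (1.36 ± 0.32) overlapped with Insm1 (1.19 ± 0.24) behind it at E9.0. At E9.5 Insm1 (4.45 ± 0.30), Neurog1 (3.72 ± 0.63), Neurod1 (3.21 ± 0.45) and Neurod4 (2.92 ± 0.24) formed a chain in which neighbours overlapped, and Neurod4 was clear of Nhlh2, Nhlh1 and Atoh1 below it.

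**Figure D3:**
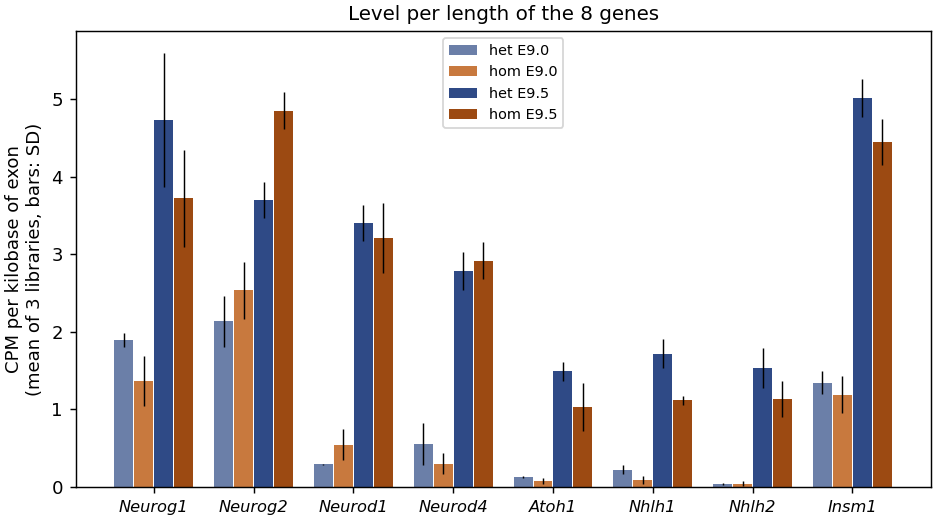
Level of each gene per kilobase of exon, as the mean of 3 libraries with bars of 1 SD, on a linear axis from 0. Neurog2 is the highest of the 8 genes in homozygous heads at both stages (2.54 and 4.85 CPM per kilobase), and Insm1 in heterozygous heads at E9.5 (5.01).

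The comparison of genotypes asks whether mutant heads differ from control heads at each stage. At E9.0 edgeR called 0 of the 8 genes, against 0.587% of all 14810 genes, and DESeq2 and limma-voom also called 0. At an unadjusted p under 0.05 it counted 3 of 8, against 13.3% of all genes. The median log2 difference, homozygous less heterozygous, was -0.32 over the 8 genes and 0.00 over all. Of the 8, 3 lay wholly lower in homozygous libraries (Neurog1, Atoh1 and Nhlh1), against 8.20% of all genes, and 1 wholly higher (Neurod1), against 9.07%.

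The difference for Nhlh1 at E9.0 was -1.33 ± 0.43 (log2, SE; edgeR unadjusted p = 0.0075, adjusted p = 0.207), which rests on 31 heterozygous and 10 homozygous counts. The ratio of these counts per scaled library size was 0.393, with a 95% exact Poisson interval of 0.172 to 0.823 that covers counting error only. Neurod1 differed in the other direction, by 0.89 ± 0.29 (unadjusted p = 0.00653, edgeR adjusted p = 0.195), with its heterozygous libraries all near 0.8 CPM. Neurod4 was at -0.87 ± 0.36 (unadjusted p = 0.0288, edgeR adjusted p = 0.314) and its groups overlapped. With 1 library left out, Neurod4 ran from -1.18 to -0.38 and Neurod1 from 0.56 to 1.13. The neurogenins had opposite signs, Neurog1 at -0.46 ± 0.22 (edgeR adjusted p = 0.382) and Neurog2 at 0.25 ± 0.15 (adjusted p = 0.477). Atoh1, at -0.79 ± 0.61 (edgeR adjusted p = 0.603), and Nhlh2, at 0.03 ± 0.65 (adjusted p = 0.99), rested on 15 heterozygous and 7 homozygous counts and on 12 and 10. The intervals of 2 SE ran from -2.01 to 0.43 for Atoh1 and from -1.27 to 1.33 for Nhlh2. Insm1 was at -0.18 ± 0.15 (edgeR adjusted p = 0.655), with an interval from -0.49 to 0.13. Leaving out 1 library gave 0.13 to 0.38 for Neurog2, -1.09 to -0.34 for Atoh1 and -0.34 to -0.06 for Insm1.

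At E9.5 edgeR again called 0 of the 8 genes, against 1.89% of all genes, and DESeq2 called 0. limma-voom called 2, Neurog2 (adjusted p = 0.0484) and Nhlh1 (adjusted p = 0.0448). The unadjusted p was under 0.05 for 5 of the 8, against 13.4% of all genes. The median log2 difference was -0.26 over the 8 genes and 0.00 over all. In homozygous libraries 3 of the 8 lay wholly lower (Atoh1, Nhlh1 and Insm1), against 9.47% of all genes, and 1 wholly higher (Neurog2), against 11.4%.

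Neurog2 was higher in every homozygous library at E9.5, by 0.39 ± 0.12 (log2, SE; edgeR unadjusted p = 0.00467, adjusted p = 0.123). Neurog1 was at -0.35 ± 0.16 (unadjusted p = 0.0439, edgeR adjusted p = 0.354), and without heterozygous E9.5 replicate 2, its highest library, at -0.19. Nhlh1 was at -0.62 ± 0.18 (unadjusted p = 0.00321, edgeR adjusted p = 0.101), from 404 heterozygous and 244 homozygous counts. Atoh1 was at -0.53 ± 0.21 (unadjusted p = 0.0246, edgeR adjusted p = 0.281) and Nhlh2 at -0.43 ± 0.18 (unadjusted p = 0.0273, adjusted p = 0.294). With 1 library left out, Atoh1 ran from -0.72 to -0.31 and Nhlh2 from -0.59 to -0.28. The exact two-sided permutation test of CPM gave p = 0.1, the smallest that 3 libraries against 3 allow, for Neurog2, Nhlh1, Atoh1 and Insm1. Neurod1 (-0.09 ± 0.15, edgeR adjusted p = 0.882), Neurod4 (0.07 ± 0.20, adjusted p = 0.937) and Insm1 (-0.17 ± 0.11, adjusted p = 0.561) had the smallest differences, with intervals of 2 SE from -0.38 to 0.20, from -0.32 to 0.46 and from -0.38 to 0.04.

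Averaged over both stages, Nhlh1 fell in homozygous heads, by 0.97 ± 0.23 (log2, SE; edgeR adjusted p = 0.034), or 1.96-fold lower. It was the 1 of 8 genes called, against 2.96% of all genes in either direction and 1.14% lower. At each stage its homozygous libraries had all stood below the heterozygous ones. The call was kept in 9 of 10 alternatives and in 5 of 12 fits that left out 1 library. It was lost with library sizes left unscaled (adjusted p = 0.0803). It was also lost without heterozygous E9.0 replicate 2 (adjusted p = 0.114) or 3 (0.0622), heterozygous E9.5 replicate 2 (0.0546) or 3 (0.0506), homozygous E9.0 replicate 3 (0.0965), or homozygous E9.5 replicate 1 (0.0563) or 2 (0.0694). Neurog2 averaged 0.32 ± 0.10 (edgeR adjusted p = 0.0857) and Neurog1 -0.40 ± 0.14 (adjusted p = 0.135). The other members did not pass either, with adjusted p from 0.204 for Neurod1 to 0.821 for Nhlh2.

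**Figure D4:**
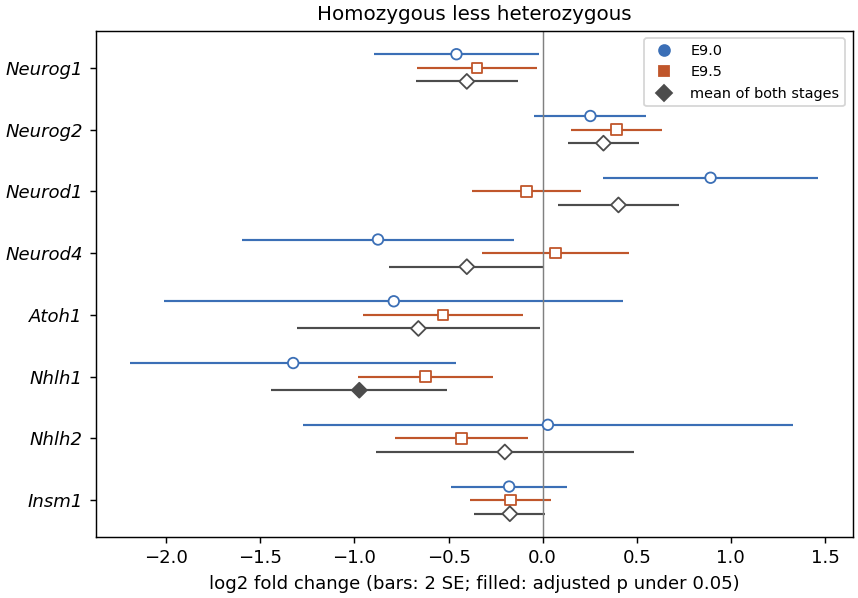
Log2 fold change of homozygous less heterozygous heads for each gene at E9.0 (blue circles), at E9.5 (orange squares) and as the mean of both stages (grey diamonds), with bars of 2 SE. The 1 filled point, adjusted p under 0.05, is the mean for Nhlh1 at -0.97. Neurog1 and Neurog2 lie on opposite sides of 0 in all 3 comparisons.

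Whether the genotype difference itself changed between the stages was tested as an interaction. edgeR, DESeq2 and limma-voom each called 0 of the 8 genes, against 0.0675% of all genes in edgeR. The unadjusted p was under 0.05 for 2 of 8, against 8.6% of all genes. These were the related differentiation factors Neurod1, at -0.98 ± 0.32 (log2, SE; edgeR unadjusted p = 0.00756, adjusted p = 0.387), and Neurod4, at 0.94 ± 0.41 (unadjusted p = 0.0367, adjusted p = 0.543). With 1 library left out, the interaction ran from -1.21 to -0.65 for Neurod1 and from 0.45 to 1.25 for Neurod4. Neurod1 stood higher in homozygous heads at E9.0 and overlapped the controls at E9.5. Neurod4 overlapped between the genotypes at both stages.

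Other genes of the same pathway were counted from lists. Of 12 further proneural and neuronal bHLH genes 7 passed the filter. Of these Tal2 and Bhlhe23 were called lower at E9.5. Tal2, a gene of midbrain GABAergic neurons, read 6.00, 14.6 and 7.38 CPM in heterozygous and 2.16, 2.27 and 1.91 CPM in homozygous heads, a difference of -2.14 ± 0.29 (log2, SE; edgeR adjusted p = 0.00266). Heterozygous replicate 2 was the high library, and without it the difference was -1.65 (adjusted p = 3.67e-05). Bhlhe23 fell by 1.61 ± 0.36 (edgeR adjusted p = 0.0312) and kept its call in 1 of 6 fits without a library, the one without heterozygous replicate 1 (adjusted p up to 0.138 in the other 5).

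The 7 partners and inhibitors of bHLH proteins, the E protein genes Tcf3, Tcf4 and Tcf12 and the Id genes Id1 to Id4, showed no call between the genotypes. edgeR, DESeq2 and limma-voom called 0 of 7 at both stages, with 2 at an unadjusted p under 0.05 at E9.0 and 3 at E9.5 in edgeR. Their medians were -0.08 and -0.13. With stage Id4 rose by 1.37 ± 0.16 (log2, SE; edgeR adjusted p = 1.9e-05) in heterozygous heads, while Id1 fell by 0.26 ± 0.07 (adjusted p = 0.00677).

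Of 16 Notch genes, edgeR and limma-voom called 0 between the genotypes at E9.0 and DESeq2 1, with 3 at an unadjusted p under 0.05 in edgeR. At E9.5 edgeR called 1, Dll3, a Delta family protein known to inhibit Notch from within the cell. Dll3 read 9.14, 9.12 and 9.76 CPM in heterozygous and 5.23, 5.49 and 5.59 CPM in homozygous heads. Its replicates lay close together and it fell by 0.78 ± 0.13 (log2, SE; edgeR adjusted p = 0.00596), a call kept with each of the 6 libraries left out. At E9.0 Dll3 stood at -0.69 ± 0.21 (adjusted p = 0.167), and at -0.91 (adjusted p = 0.0495) without heterozygous replicate 3. Dll1, the main Delta ligand of neurogenesis, was at -0.01 ± 0.10 (edgeR adjusted p = 0.978) at E9.0 and at E9.5 at -0.22 ± 0.10 (adjusted p = 0.322). Hes5, the repressor that answers Notch in progenitors, was at -0.03 ± 0.13 and -0.23 ± 0.12 (edgeR adjusted p = 0.94 and 0.443). Hes6, which counters other Hes proteins and promotes neurogenesis, was at -0.12 ± 0.10 and -0.27 ± 0.09 (adjusted p = 0.621 and 0.142). With unscaled library sizes the E9.0 values of Dll1, Hes5 and Hes6 changed sign. With stage, 10 of the 16 were called higher in heterozygous heads, among them Dll1, Dll3, Hes5 and Hes6.

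Of 25 genes known to act downstream of proneural factors, 21 passed the filter, and 18 of these were called with stage in heterozygous heads, 17 higher and 1 lower. Between the genotypes edgeR, DESeq2 and limma-voom called 0 of 21 at E9.0, with 6 at an unadjusted p under 0.05 in edgeR. At E9.5 edgeR called 2. Tubb3, the neuronal beta-tubulin, read 83.0, 103 and 97.2 CPM in heterozygous and 59.1, 55.8 and 60.5 CPM in homozygous heads. All homozygous libraries were lower, and Tubb3 fell by 0.69 ± 0.07 (log2, SE; edgeR adjusted p = 0.000172), kept with each of the 6 libraries left out. Ebf1, an early B-cell factor of differentiating neurons and of mesenchyme, was higher in homozygous heads by 0.49 ± 0.11 (adjusted p = 0.0277). The Ebf1 call was lost without heterozygous replicate 1 or 2 or homozygous replicate 1 or 3 (adjusted p up to 0.141). Elavl3, an RNA-binding protein of new neurons, was at -0.31 ± 0.14 (edgeR adjusted p = 0.355), and Ebf2 at 0.24 ± 0.10 (adjusted p = 0.273). The median over the 21 was -0.27 at E9.5 and -0.19 at E9.0.

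**Figure D5:**
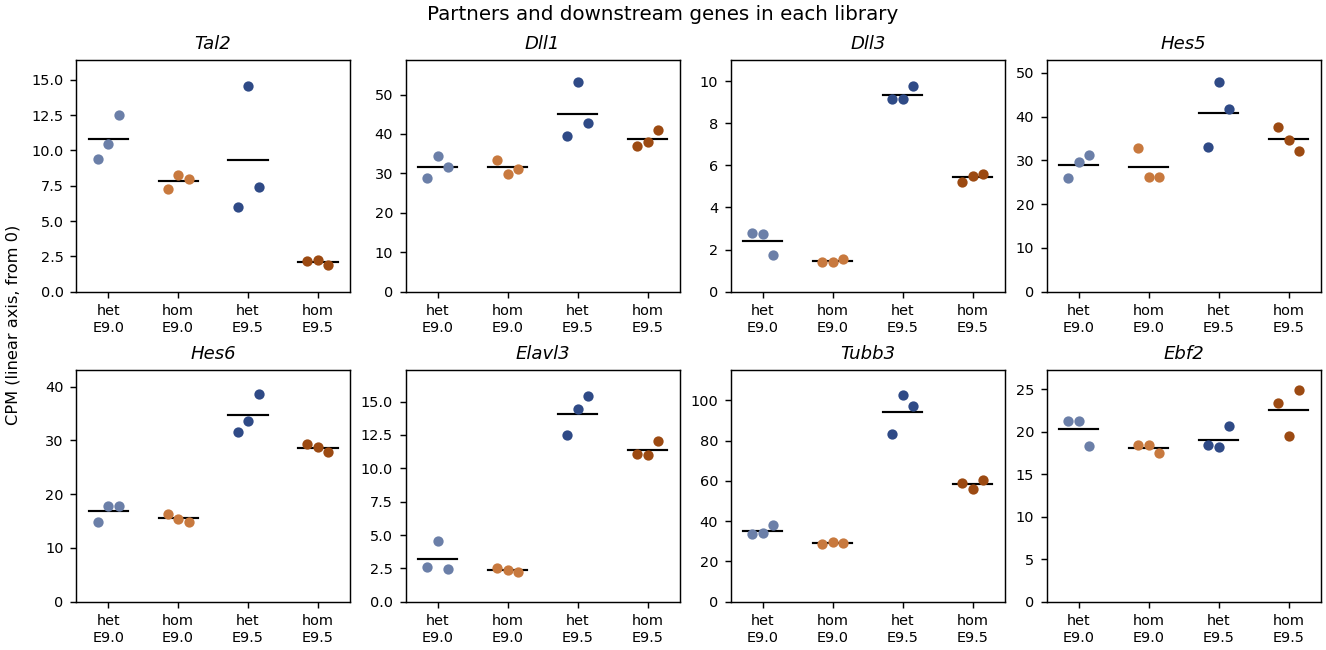
Levels of Tal2, 4 Notch genes (Dll1, Dll3, Hes5 and Hes6) and 3 genes downstream of proneural factors in each library, in CPM on linear axes from 0, with points for libraries and bars for means of 3. Dll3 and Tubb3 lie wholly lower in homozygous than in heterozygous heads at E9.5 (5.43 against 9.34 CPM for Dll3 and 58.5 against 94.3 CPM for Tubb3, as means). Heterozygous E9.5 replicate 2 is the high point of Tal2 at 14.6 CPM.

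The territories that the members are known for were counted last. Of 12 genes of the dorsal hindbrain and rhombic lip, where Atoh1 acts, edgeR, DESeq2 and limma-voom called 0 at E9.0, with 1 at an unadjusted p under 0.05 in edgeR. At E9.5 edgeR called 4, all lower. Wnt1, the signal of the dorsal midline and of the midbrain boundary, fell by 0.93 ± 0.17 (log2, SE; edgeR adjusted p = 0.00913), kept with each of the 6 libraries left out. Lhx9 (-1.88 ± 0.37, edgeR adjusted p = 0.018), Pax7 (-0.84 ± 0.17, adjusted p = 0.0194) and Barhl1 (-1.38 ± 0.34, adjusted p = 0.0476) were the others. The Lhx9 call was lost without heterozygous replicate 1 or homozygous replicate 1 or 2 (adjusted p up to 0.107). The Pax7 call was lost without heterozygous replicate 2 or homozygous replicate 1 or 3 (up to 0.0789). Barhl1 was lost without heterozygous replicate 1 or 3 or homozygous replicate 1 or 2 (up to 0.206).

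Of 15 genes of the cranial sensory ganglia, which the neurogenins found, edgeR, DESeq2 and limma-voom called 0 at E9.0, with 5 at an unadjusted p under 0.05 in edgeR. At E9.5 calls were made in both directions. Pou4f1 (-0.95 ± 0.17, adjusted p = 0.0107) and Tlx3 (-1.14 ± 0.24, adjusted p = 0.021), homeobox genes of sensory neurons, fell in homozygous heads. Tlx1 (0.61 ± 0.15, edgeR adjusted p = 0.0459), a relative of Tlx3, rose. These calls depended on single libraries. Pou4f1 was lost without homozygous replicate 1 or 2 (adjusted p up to 0.0663), and Tlx3 without either of these or heterozygous replicate 2 or 3 (up to 0.135). Tlx1 was lost without any 1 of the 6 (up to 0.171). Fitted on the E9.5 groups alone, the E9.5 calls of Tal2, Ebf1, Lhx9, Pax7, Barhl1, Pou4f1 and Tlx3 were lost (adjusted p from 0.0559 for Tlx3 to 0.126 for Lhx9). With unscaled sizes those of Ebf1 (adjusted p = 0.2) and Tlx1 (0.165) were lost, and with DESeq2 those of Barhl1 (0.0561) and Tlx3 (0.0542). Barhl1 and Tlx1 were also lost with dispersions not robust (0.0551 and 0.0529), and Tlx1 with a mean of at least 50 counts (0.0516) or the replicate block (0.0657).

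Markers of other tissues moved with genotype beside these differences, and their part in them was not tested. At E9.0 the sums were 282 to 303 CPM in heterozygous and 334 to 344 CPM in homozygous heads for 10 endothelial markers, of which 0 were called. For 10 neural crest markers they were 383 to 405 and 323 to 348 CPM, with 2 called lower, and for 6 surface ectoderm markers 346 to 412 and 434 to 461 CPM. The E9.0 sums also separated for 12 early neuron markers (121 to 134 and 116 to 118 CPM), 10 head mesenchyme markers (343 to 382 and 302 to 331 CPM) and 15 ganglia markers (164 to 180 and 188 to 194 CPM), with 0 called in each. The ganglia sums were 172 to 173 and 197 to 205 CPM at E9.5. At E9.5 the summed CPM of the 10 endothelial markers was 182 to 259 in heterozygous and 330 to 368 in homozygous heads, with 7 of 10 called higher. The sum of the 10 neural crest markers was 235 to 262 in heterozygous and 219 to 240 in homozygous heads, with 6 of 10 called lower. The sum of the 12 early neuron markers was 257 to 307 in heterozygous and 206 to 229 in homozygous heads, with Ina, Stmn3 and Tubb3 called lower. Of the 10 head mesenchyme markers 4 were called lower, Alx1, Dlx1, Dlx2 and Msx1, with sums of 309 to 512 CPM in heterozygous and 295 to 387 CPM in homozygous heads. The surface ectoderm sums were 317 to 367 and 376 to 468 CPM without overlap, with Epcam called higher. The neural tube sums overlapped, at 838 to 1057 and 885 to 961 CPM, with Fabp7 called lower and Rax higher. All 6 heart muscle markers had differences above 0 at both stages, with median log2 of 0.427 at E9.0 and 0.397 at E9.5. Of these, 0 were called at E9.0 and 1, Nkx2-5, was called higher at E9.5, and their sums overlapped at each stage. Heterozygous E9.5 replicate 2 held the highest neural tube sum (1057), and the lowest endothelial (182) and head mesenchyme (309) sums, of the heterozygous E9.5 group.

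Over the 12 libraries the 8 genes had the step with stage in common, and their mean profile was set mainly by it. The genes outside the list whose log2 CPM was most like the mean profile were Ppp1r17 (Pearson r = 0.992), Prkar2a (0.992), Ckb (0.992), Ak3 (0.992) and Sord (0.991), out of 12027 genes compared. As 949 genes had r over 0.9, such likeness was common in a series where a stage step moves many genes. The nearest gene to each member was Itgb8 for Neurog1 (0.976), Esrrg for Neurog2 (0.988), Bad for Neurod1 (0.990), Ptprd for Neurod4 (0.984), Abcb6 for Atoh1 (0.989), Vps13a for Nhlh1 (0.994), Pde9a for Nhlh2 (0.993) and Ckb for Insm1 (0.992). With the group means taken out, members tracked each other unevenly over the 12 libraries. Neurog2 and Neurod4 went together (r = 0.910), as did Neurod4 and Nhlh1 (0.822), whereas Neurog1 and Atoh1 went apart (-0.759), as did Neurod1 and Nhlh1 (-0.709). These were the highest and lowest values among all pairs of members, and low counts at E9.0 weighed on them. In homozygous E9.0 replicate 3 the log2 deviation was -0.877 for Nhlh1 (1 count), -0.846 for Neurod4 (7 counts) and 0.522 for Neurod1. In homozygous E9.0 replicate 2 it was -0.717 for Atoh1 (1 count) and 0.357 for Neurog1. Correlations of this kind share libraries and depth and are given as descriptions.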

How the data were processed

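RNA of 12 mouse head samples was sequenced. The authors deposited 1 table of raw counts, whole numbers per gene symbol with no normalization, per the file header. Reads were trimmed with cutadapt, aligned with STAR to mm10, counted with featureCounts and summarised with MultiQC, per the submitters' processing notes. Versions, annotation and strand setting are not given in the sources used here.

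Tests used edgeR 4.0.16 (R 4.3.3), with filterByExpr by group (14810 genes kept, 9611 symbols left out that held at most 0.0778% of a library's counts), TMM factors, robust dispersions and the quasi-likelihood F test on 1 model of 4 group means. The biological coefficient of variation was 8.77%. P-values were two-sided and adjusted with the Benjamini-Hochberg method over all 14810 genes, with a threshold of 0.05. The SE was taken as log2 fold change over the root of F. CPM are relative to TMM-scaled library sizes. Likeness used log2 CPM with a prior count of 2 among genes with a mean of at least 50 counts. Alternatives were RLE, upper-quartile and no scaling factors, Rn45s removed, DESeq2 1.42.0, limma-voom (limma 3.58.1), a minimum mean of 50 counts, no filter, dispersions not robust, a replicate block, a fit on only the groups compared, and each library left out. The fits were tested on simulated data. Gene positions, lengths and overlaps are from GENCODE M21 (GRCm38).

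The 8 genes and the lists were chosen with earlier results of these data known. Some list genes are not reported here. Beside the 8, the text names other list genes past the threshold between the genotypes, and Dll1, Dll3, Hes5, Hes6, Elavl3 and Ebf2 whatever their values. Of the list genes named, Bhlhe23, Tubb3, Elavl3, Alx1, Tcf4 and Tcf12 overlap other genes on the same strand and are uncertain. Ebf1, Ebf2, Dll1, Hes5, Tlx1, Ina, Id4, Dlx1, Rax and also Tcf12 overlap genes on the opposite strand and are uncertain where the counting did not use strand.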

Additional observations from a re-analysis of the deposited data

Results flagged for a closer look

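Pou4f1, a homeobox gene of sensory neurons, had all homozygous libraries above the heterozygous ones at E9.0 and below them at E9.5. It was picked out by this pattern, which is therefore a description. Of all genes, 9.07% lay wholly higher at E9.0 and 9.47% wholly lower at E9.5. The E9.0 difference did not pass (0.21 ± 0.21, log2, SE; edgeR adjusted p = 0.703), while the E9.5 difference did (-0.95 ± 0.17, adjusted p = 0.0107). Its libraries read 4.84, 5.25 and 5.37 CPM in heterozygous and 6.09, 5.84 and 6.08 CPM in homozygous heads at E9.0. At E9.5 they read 8.81, 15.8 and 10.5 CPM in heterozygous and 5.80, 5.31 and 7.12 CPM in homozygous heads. The test of the difference between the stages gave -1.16 ± 0.27 (log2, SE; edgeR unadjusted p = 0.000615, adjusted p = 0.18) and did not pass.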

How the results depend on the processing

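Call counts over all genes, from 87 at E9.0, 280 at E9.5, 10 for the interaction and 439 for the average, were 216, 448 and 76 (E9.0, E9.5, interaction) with DESeq2, 5 (interaction) with limma-voom, and 123 (E9.5) and 3325 (homozygous stage, from 5238) with unscaled sizes. Unscaled sizes took the median log2 difference of all genes from near 0 to 0.19 at E9.0, to 0.38 with stage in heterozygous and to 0.18 in homozygous heads, and to -0.19 for the interaction. Higher calls were then 75 of 78 at E9.0 (64 of 87 before), 58 of 123 at E9.5 (176 of 280), 6725 of 6979 with stage in heterozygous heads (2840 of 5216), 2897 of 3325 in homozygous heads (2896 of 5238) and 300 of 354 in the average (270 of 439). Without 1 library the counts ran from 38 to 86, 133 to 252, 1 to 16 and 246 to 411. At E9.0 the count was 39 without heterozygous replicate 2 and 38 without homozygous replicate 3. At E9.5 it was 151 without heterozygous replicate 2 and 168, 133 and 136 without homozygous replicate 1, 2 and 3.

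Of the 8 genes, limma-voom called 2 at E9.5 and unscaled sizes 0 in the average (0 to 1 without 1 library). Signs changed as follows. With unscaled sizes Insm1 was at 0.0204 at E9.0, and the interaction at -0.0901 for Neurog1, -0.0633 for Neurog2 and -0.20 for Insm1 (-0.0147 with upper-quartile factors). With limma-voom Nhlh2 was at -0.10 at E9.0. Without 1 library Nhlh2 ran from -0.78 to 0.39 at E9.0, Neurod1 from -0.17 to 0.0270 at E9.5, and the interaction from -0.0316 to 0.34 for Neurog1, -0.19 to 0.56 for Atoh1, -0.82 to 0.35 for Nhlh2 and -0.11 to 0.17 for Insm1.

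List calls at E9.5 with unscaled sizes were 2 for ganglia. A mean of at least 50 counts gave 2 for ganglia and 2 for hindbrain, and only the groups compared 2, 1 and, for further bHLH genes, 1. For downstream genes DESeq2 gave 5 and limma-voom 4 at E9.5, and unscaled sizes 2 in the average. At E9.0 Notch genes had 1 with DESeq2 or unscaled sizes. E proteins and Id genes had 1 in the average with DESeq2. Without 1 library the range at E9.0 was 0 to 1 (Notch). At E9.5 they were 0 to 3 (ganglia), 1 to 3 (hindbrain), 1 to 2 (downstream) and 1 to 3 (bHLH). In the average they were 0 to 1 (E proteins and Id genes), 1 to 5 (downstream) and 1 to 2 (Notch). At E9.0 unscaled sizes gave 0.17 for Dll1, 0.15 for Hes5, 0.0597 for Hes6 and 0.0427 for Ebf2. Dll1 was also at 0.0171 with upper-quartile factors and at 0.0008 with a mean of 50 counts or only the groups compared, and Bhlhe23 at -0.0478 with limma-voom. Without 1 library Dll1 ran from -0.0694 to 0.0539, Hes5 from -0.15 to 0.0236, Bhlhe23 from -0.82 to 0.51 and Tlx3 from -0.13 to 0.15. The cause of these changes was not tested.

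The labels give no batch or pairing. Same-numbered libraries of the genotypes correlated at 0.030 to 0.109 in their deviations, and differently numbered ones at -0.196 to 0.171. Deviations from a mean of 3 libraries are not independent, so whether the replicate numbers mark pairs cannot be told from these values. With the replicate block 69, 248, 9 and 383 genes were called, and 3 downstream genes in the average in place of 5. The block changed no call of the 8 genes. Counts of 1 to 13 per library limit Atoh1, Nhlh1 and Nhlh2 at E9.0.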

Other observations

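The balance of the 2 neurogenins was looked at after their values had been seen, so no test is given. The ratio of Neurog2 to Neurog1, per kilobase of exon, was 1.15, 1.24 and 0.975 in heterozygous and 2.45, 1.53 and 1.77 in homozygous libraries at E9.0. At E9.5 it was 0.876, 0.637 and 0.882 in heterozygous and 1.15, 1.42 and 1.39 in homozygous libraries. The genotypes did not overlap at either stage. A ratio within a library does not depend on how the library was scaled. The ratio of Neurod1 to Neurod4, taken the same way, was 0.642, 0.340 and 0.817 in heterozygous and 1.38, 0.960 and 5.43 in homozygous libraries at E9.0, and overlapped at E9.5.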
